A study of Mus musculus with 6 samples.

Results

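The granules of neutrophils are filled in sequence as the cells mature in the bone marrow. Primary (azurophil) granules are made at the promyelocyte stage, secondary (specific) granules at the following stages, and gelatinase granules last, and what a granule holds follows from which genes were transcribed when it formed. Secondary granule genes are known to depend on the transcription factor C/EBPε, and their products bind iron, cut matrix or kill microbes. The 10 genes described here, out of 16579 in the table, are *Ltf*, *Camp*, *Ngp*, *Lcn2*, *Mmp8*, *Mmp9*, *Cd177*, *Chil3*, *Asprv1* and *S100a8*. They were chosen by name as genes of specific and gelatinase granules and of late neutrophils, with results of the genotype comparison in these same libraries already known. Their difference between the genotypes is therefore given as a description, with no test. All 10 passed the filter on low counts.

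RNA came from 6 samples of megakaryocytes (MKs) sorted from mouse bone marrow, 3 of the genotype *Becn1*f/f and another 3 labelled as *Becn1*f/f;*Pf4-iCre*, from mice aged 3 months by the study's methods. Both genotypes carry the floxed *Becn1* allele, and the second also carries the Cre recombinase driven by *Pf4* sequence, which acts in the megakaryocytic lineage. The libraries are called f/f 1 to 3 and Pf4-iCre 1 to 3 below. The gate of the sort for these libraries and the sex of the mice are not given in the sources used here. Total estimated counts were 16467560 to 17156728 per library. *Becn1* itself lay at 109 to 128 CPM (counts scaled to the library's size) in f/f libraries and at 104 to 110 in Pf4-iCre libraries, and these ranges overlapped (log2 fold change -0.15, standard error 0.12, adjusted p = 0.94 in edgeR). Because counts were deposited per gene, the state of the floxed exons cannot be read from them.

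The sorted samples held far more RNA of the granule genes than of MK genes, also per length. The 10 genes took 1.12%, 0.804% and 0.963% of all counts in f/f 1, 2 and 3, and 0.668%, 0.837% and 0.878% in Pf4-iCre 1, 2 and 3. The genotypes overlapped in this share, and the Pf4-iCre mean was 82.6% of the f/f mean. A list of 16 MK and platelet genes took 0.0292% to 0.0387% of the counts per library. In summed FPKM (which corrects for transcript length), the 10 genes took 1.82% to 4.09% and the MK and platelet genes 0.0151% to 0.0238%. Of these MK and platelet genes, the 14 that passed the filter included *Itga2b*, which encodes CD41, at 142 to 187 CPM, and *Pf4* at 2.08 to 6.73 CPM and as the only differentially expressed gene (DEG, by the thresholds given with the 10 genes) of the list (log2 fold change -1.01, standard error 0.29, adjusted p = 0.42 in edgeR), while *Gp6* and *Mpig6b* did not pass. A list of 8 neutrophil markers that shares no gene with the 10 took 0.124% to 0.176%. In RNA of whole samples, fewer cells of a type and less RNA per cell cannot be told apart.

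**Figure D1:**
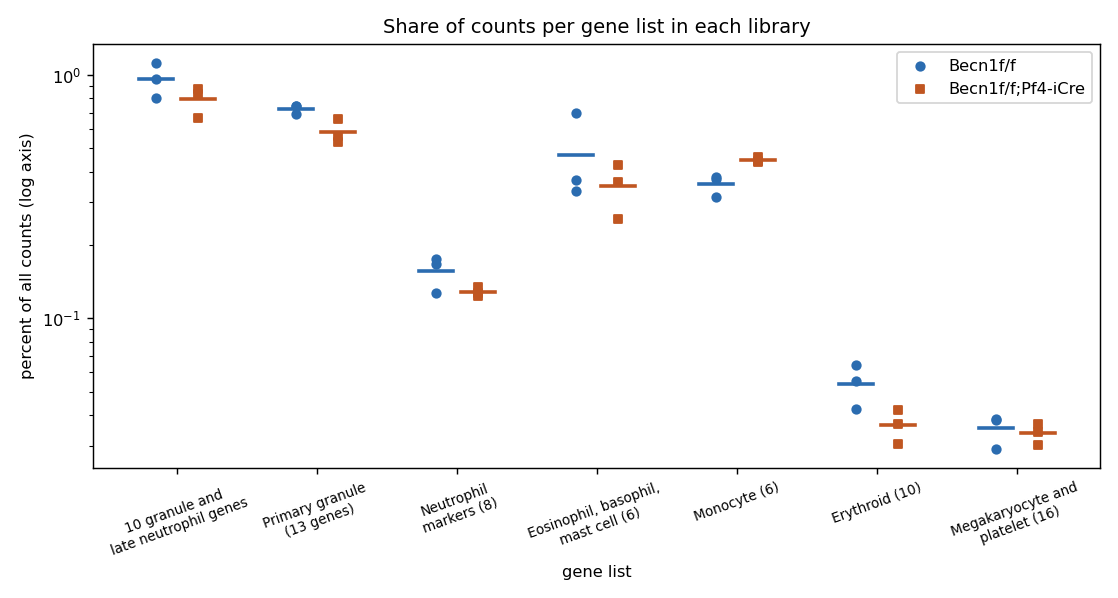
Percent of all estimated counts (log axis) taken by each gene list, with 1 point per library, circles for *Becn1*f/f and squares for *Becn1*f/f;*Pf4-iCre*, and a line at the mean of 3 libraries. The 10 granule and late neutrophil genes took 0.668% to 1.12%, and the 16 MK and platelet genes 0.0292% to 0.0387%.

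Promoter sequence is shown for the secondary granule genes *Ltf*, *Ngp*, *Lcn2* and *Mmp8*, which hold a C/EBP motif, and for *Camp*, which holds none. RefSeq promoters on GRCm38.p6 were found for 9 of the 10 genes, all but *Mmp9*. The 250 bases before each annotated start were searched on both strands for TTGCNNAA, the stricter form of a C/EBP motif, where N is any base. This form was present in 4 of the 9 promoters and in 9.56% of the 32851 promoters of the table. In the runs below, written 5′ to 3′ on the strand of the gene, capitals mark the matches. They are chr9:111019042-111019291 (plus strand) for *Ltf*, chr9:110419558-110419807 (plus) for *Ngp*, chr2:32387740-32387989 (minus) for *Lcn2*, chr9:7558179-7558428 (plus) for *Mmp8* and chr9:109849457-109849706 (minus) for *Camp*.
Ltf: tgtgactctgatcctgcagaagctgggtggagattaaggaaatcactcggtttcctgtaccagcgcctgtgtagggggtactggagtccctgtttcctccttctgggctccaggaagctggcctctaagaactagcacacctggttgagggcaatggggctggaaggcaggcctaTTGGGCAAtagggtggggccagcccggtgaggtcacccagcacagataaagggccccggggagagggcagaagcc
Ngp: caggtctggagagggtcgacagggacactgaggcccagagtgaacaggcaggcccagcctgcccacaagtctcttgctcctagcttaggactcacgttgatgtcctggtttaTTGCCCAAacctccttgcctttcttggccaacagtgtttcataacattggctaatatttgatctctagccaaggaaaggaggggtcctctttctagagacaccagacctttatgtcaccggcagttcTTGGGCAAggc
Lcn2: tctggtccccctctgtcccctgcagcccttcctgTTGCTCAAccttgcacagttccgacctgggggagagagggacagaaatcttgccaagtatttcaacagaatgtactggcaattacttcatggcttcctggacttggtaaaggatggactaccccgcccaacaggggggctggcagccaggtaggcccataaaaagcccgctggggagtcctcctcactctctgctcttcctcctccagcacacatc
Mmp8: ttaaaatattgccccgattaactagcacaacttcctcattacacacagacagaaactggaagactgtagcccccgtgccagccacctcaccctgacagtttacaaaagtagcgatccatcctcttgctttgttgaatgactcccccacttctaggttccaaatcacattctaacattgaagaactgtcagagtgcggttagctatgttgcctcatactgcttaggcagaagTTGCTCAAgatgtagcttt
Camp: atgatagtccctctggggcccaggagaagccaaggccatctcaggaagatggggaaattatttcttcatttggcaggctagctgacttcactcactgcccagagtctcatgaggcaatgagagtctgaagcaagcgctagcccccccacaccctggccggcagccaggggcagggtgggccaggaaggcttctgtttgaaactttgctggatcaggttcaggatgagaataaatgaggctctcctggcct

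The matches lie at positions -75 to -68 in *Ltf*, at -138 to -131 and again at -11 to -4 in *Ngp*, at -216 to -209 in *Lcn2* and at -19 to -12 in *Mmp8*, counted from the first transcribed base. The 5 matches use only 2 runs of letters. Those of *Ltf* and *Ngp* read TTGGGCAA or, for the upstream match of *Ngp*, its reverse complement TTGCCCAA, which occurs on either strand in 0.709% of all promoters. Those of *Lcn2* and *Mmp8* read TTGCTCAA, present on either strand in 0.868% of all promoters. That these runs recur was noticed after the sequences were seen. The start of *Mmp8* in RefSeq was not found within a GENCODE transcript of the gene, unlike the starts of the other 8. A relaxed form, TTNNGNAA, which takes in every match of the stricter form, was present in 7 of the 9 promoters (all but *Camp* and *Asprv1*) and in 36.8% of all promoters. GAGGAA, the PU-box bound by the myeloid factor PU.1, was present in 5 (*Cd177*, *Lcn2*, *Ltf*, *Mmp8* and *S100a8*) and in 23.3% of all, and TATAAA in 2 (*Cd177* and *S100a8*) and in 12.4% of all. *Camp*, *Ngp* and *Ltf* lie within 1.17 Mb of one another on chromosome 9. A match of letters is a description of the sequence and does not show binding.

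The genes were ordered by FPKM, the deposited scale that corrects for transcript length. *S100a8*, 1 of the 2 subunits of the calcium-binding protein calprotectin, had the highest mean FPKM of all 16579 genes over the 6 libraries, and *Ngp* was 7th. The rank of *S100a8* rests on the length correction in the deposited FPKM. Its FPKM per estimated count was 0.564 to 0.717 over the libraries, against 0.0239 to 0.0252 for *Ltf*. Their longest transcripts have 498 and 2743 bases, and the gap in FPKM per count was wider than these lengths would give. The deposited FPKM of *S100a8* was thus higher than a length of 498 bases would give. In CPM the f/f mean of *S100a8*, 943, was below those of *Ngp* (2886), *Chil3* (2006) and *Ltf* (1905). In f/f libraries, *S100a8* lay at 10269 ± 3928 FPKM, *Ngp* at 3419 ± 1275, *Chil3* at 1652 ± 180 and *Camp* at 1310 ± 398 (SD, n = 3 each). *Ltf* followed at 788 ± 171, *Lcn2* at 766 ± 94.9, *Cd177* at 158 ± 23.4, *Mmp9* at 157 ± 56.1 and *Mmp8* at 111 ± 31.4 FPKM (SD, n = 3 each). *Asprv1* was far below the rest at 11.3 ± 1.69 FPKM (SD, n = 3). Of the 9 neighboring pairs in this order, 5 did not overlap in their range over the 3 libraries. The overlapping pairs were *Chil3* with *Camp*, *Ltf* with *Lcn2*, *Cd177* with *Mmp9* and *Mmp9* with *Mmp8*.

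In Pf4-iCre libraries the order was the same for the first 7 genes, and *Mmp8* (115 ± 25.3 FPKM, SD, n = 3) stood before *Mmp9* (103 ± 19.4), a pair whose ranges overlapped. *Ngp* (2518 ± 451 FPKM, SD, n = 3) overlapped with *Chil3* (1861 ± 258) in these libraries, which it did not in f/f libraries. *S100a8* lay at 8694 ± 3549 FPKM and *Asprv1* at 6.29 ± 1.57 (SD, n = 3 each).

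**Figure D2:**
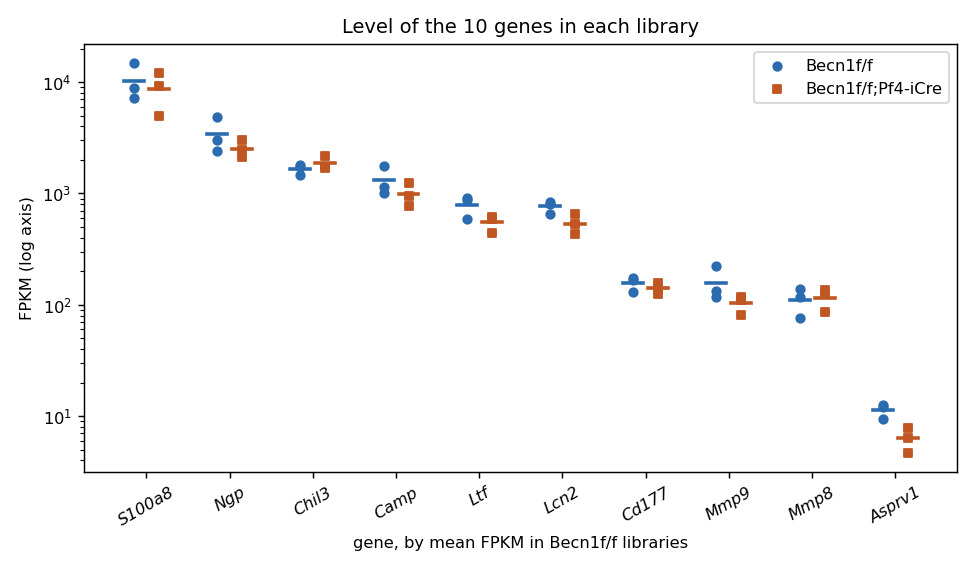
FPKM of each gene (log axis) with 1 point per library, circles for *Becn1*f/f and squares for *Becn1*f/f;*Pf4-iCre*, and a line at the mean of 3 libraries. From *S100a8* at 10269 to *Asprv1* at 11.3 FPKM in f/f libraries, the order of the genes differed between the genotypes only for *Mmp8* and *Mmp9*.

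Among the secondary granule proteins, *Ltf* encodes the iron-binding lactoferrin, and its normalized counts were 2257, 1419 and 2040 CPM in f/f 1, 2 and 3 and 1109, 1400 and 1495 in Pf4-iCre 1, 2 and 3. The libraries f/f 1 and f/f 3 were above all Pf4-iCre libraries, and f/f 2 lay within their range. The log2 fold change was -0.51 (standard error 0.19), and a positive value would mean a higher level in Pf4-iCre libraries. *Lcn2* encodes a lipocalin that binds bacterial siderophores. It lay at 438, 354 and 434 CPM in f/f 1, 2 and 3 and at 247, 274 and 341 in Pf4-iCre 1, 2 and 3. Every Pf4-iCre library was below every f/f library, with a log2 fold change of -0.51 (standard error 0.16).

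*Camp* encodes the antimicrobial cathelicidin, and *Ngp* a granule protein of related sequence. *Camp* lay at 495, 334 and 280 CPM in f/f 1, 2 and 3 and at 237, 255 and 338 in Pf4-iCre 1, 2 and 3. *Ngp* lay at 4175, 2027 and 2455 CPM in f/f 1, 2 and 3 and at 1860, 2021 and 2505 in Pf4-iCre 1, 2 and 3. For both genes f/f 1 was the highest library, and the other 5 libraries overlapped between the genotypes. The log2 fold changes were -0.42 (standard error 0.21) for *Camp* and -0.44 (standard error 0.24) for *Ngp*. Without f/f 1 they were -0.14 and -0.07.

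*Cd177*, a surface glycoprotein of neutrophils that is also stored in secondary granules, showed little spread. It lay at 414, 313 and 409 CPM in f/f 1, 2 and 3 and at 313, 375 and 332 in Pf4-iCre 1, 2 and 3, and the genotypes overlapped. The log2 fold change was -0.15 (standard error 0.15).

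The 2 matrix metalloproteinases differed from each other. *Mmp8* encodes the neutrophil collagenase of secondary granules, and it lay at 256, 162 and 286 CPM in f/f 1, 2 and 3 and at 191, 284 and 264 in Pf4-iCre 1, 2 and 3. Its genotypes overlapped over nearly the whole range, with a log2 fold change of 0.07 (standard error 0.21). *Mmp9* encodes gelatinase B, the protein that names the gelatinase granules, and it lay at 393, 329 and 612 CPM in f/f 1, 2 and 3 and at 238, 329 and 317 in Pf4-iCre 1, 2 and 3. The library f/f 3 stood alone at the top, and Pf4-iCre 2 was level with f/f 2. The log2 fold change of *Mmp9* was -0.59 (standard error 0.22). It was -0.29 without f/f 3 and -0.46 without Pf4-iCre 1, and in neither case past a fold of 1.5.

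*Asprv1* and *Chil3* lay at the 2 ends of the fold changes. *Asprv1* encodes a retroviral-like aspartic protease best known from the epidermis, and it was the lowest of the 10 genes in every library, at 15.6, 11.3 and 14.3 CPM in f/f 1, 2 and 3 and at 5.93, 7.66 and 9.44 in Pf4-iCre 1, 2 and 3. Every Pf4-iCre library was below every f/f library, and the log2 fold change was -0.84 (standard error 0.21). *Chil3* encodes a chitinase-like lectin (Ym1) that macrophages and monocytes can also make. It lay at 1814, 2080 and 2124 CPM in f/f 1, 2 and 3 and at 2140, 2594 and 2111 in Pf4-iCre 1, 2 and 3, with a log2 fold change of 0.19 (standard error 0.15), and the genotypes overlapped. Of the stretches of 50 bases in the longest *Chil3* transcript, 29.4% also occur in transcripts of other genes, mainly *Chil4*, so reads of this gene could have been assigned in part to its copy. *Chil4* was given 10 to 18 counts per library. For *Cd177* the share was 5.74%, mainly with *Gm4763*, and the other 8 genes share no such stretch.

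*S100a8* lay at 1286, 880 and 662 CPM in f/f 1, 2 and 3 and at 526, 775 and 1052 in Pf4-iCre 1, 2 and 3. The genotypes overlapped over most of their range, and the log2 fold change was -0.27 (standard error 0.27). Without f/f 1 it was 0.03. CPM, computed from the deposited counts, and the deposited FPKM did not rank the libraries alike for this gene, nor for some others. For *S100a8*, Pf4-iCre 2 was below f/f 2 in CPM, and above it in FPKM (9137 against 8818). The same held for *Ngp* (2021 against 2027 CPM, 2444 against 2409 FPKM). For *Chil3*, Pf4-iCre 1 was above f/f 2 in CPM (2140 against 2080), and below it in FPKM (1684 against 1714). The FPKM of *S100a8* given per estimated count ranged from 0.564 to 0.717 over the libraries. This was a ratio of 1.27, against at most 1.14 for the other 9 genes.

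**Figure D3:**
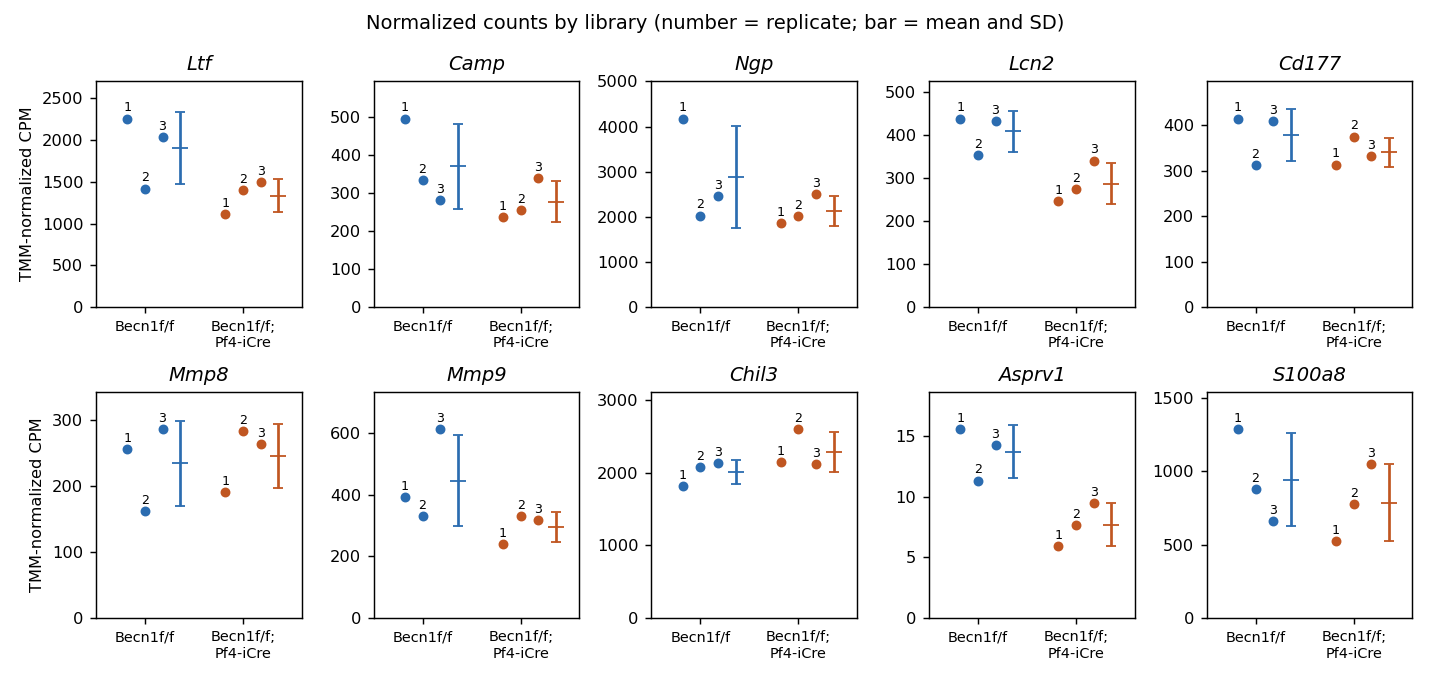
TMM-normalized CPM of each gene in each library (linear axes from 0, numbers give the replicate), with the mean and SD of 3 libraries beside the points. Only *Lcn2* and *Asprv1* have every *Becn1*f/f;*Pf4-iCre* library below every *Becn1*f/f library.

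Over the 10 genes, 8 had a negative and 2 a positive log2 fold change, with a median of -0.43, against -0.02 over the 12256 genes tested, of which 6677 were negative. With the thresholds of the study's methods (a fold change of at least 1.5 and an unadjusted *P* under 0.05, which the study took from DESeq2), applied here to edgeR's quasi-likelihood test, *Mmp9* and *Asprv1* counted as DEGs, both lower, where 0.938% of all tested genes did so in that direction and 2.30% in either. With DESeq2, 2 of the 10 were again DEGs, beside 247 of 16400 genes. The count was 5 without f/f 2 or without Pf4-iCre 3. Over all genes, those 2 fits gave DEGs for 410 of 12406 and 340 of 12409, with 208 and 142 lower. The count was 1 with limma on log2 FPKM, where *Mmp9* was at -0.57 and short of a fold of 1.5. There, 121 of 16422 genes were DEGs with a pseudocount of 1, and 432 with 0.1. In edgeR with all 6 libraries, none of the 10 counted as a DEG in the higher direction, as 1.36% of all genes did. None of the 10 had an adjusted p under 0.05, as 0.0408% of all genes did. The 2 genes with non-overlapping genotypes, both lower, stand beside 5.18% of all tested genes, and none of the 10 was above in every library, as 5.42% of all genes were. Since the genes were proposed from this contrast, nothing is read from these counts. *Mmp9* lay just inside the fold of 1.5, and *Ltf* and *Lcn2* just outside it. The median depended on f/f 1: without that library it was -0.11, and 7 of the 10 genes were negative. Without any other library it was between -0.58 and -0.33.

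The fold changes ran with GC content. Across the 10 genes, the Spearman correlation between the GC content of the longest transcript and the log2 fold change was -0.61, and it was -0.34 across 11953 tested genes, a description over genes that share the same 6 libraries. The genes of lowest GC content, *Mmp8* (43.4%), *S100a8* (44.2%) and *Chil3* (45.0%), were 3 of the 4 genes with the highest fold change. After correction for GC content and length, fitted library by library and added after the data were seen, the median was -0.38, with 8 genes still negative. *Asprv1* was at -0.75 and *Mmp9* at -0.50, the latter no longer past a fold of 1.5.

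**Figure D4:**
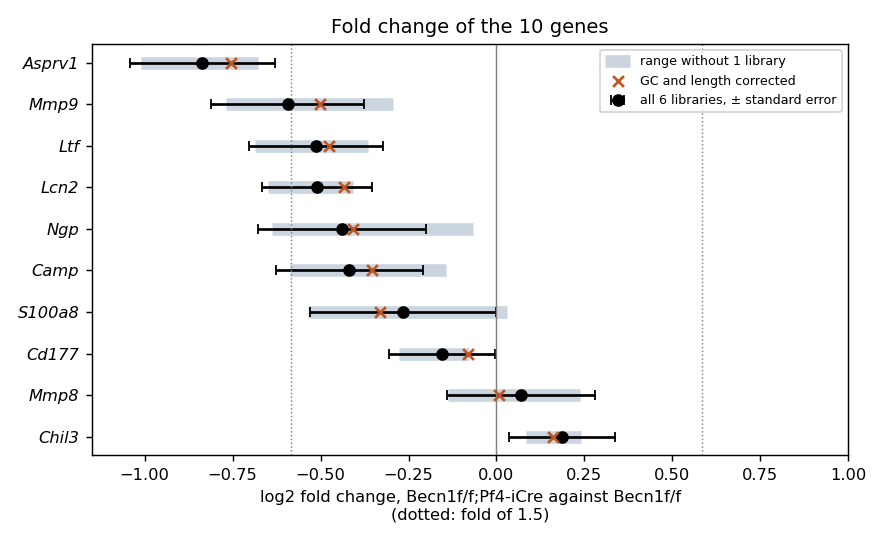
Log2 fold change of each gene (black points, with the standard error), the range when each of the 6 libraries was left out in turn (gray bars) and the value with GC content and transcript length corrected (crosses). *Asprv1* stayed between -1.01 and -0.68, while the bars of *S100a8* and *Mmp8* cross 0.

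Libraries of the same genotype differed from each other across most of the 10 genes. In CPM, f/f 1 was the highest f/f library for 7 of the 10 genes, and f/f 3 for *Mmp8*, *Mmp9* and *Chil3*. In FPKM, f/f 3 was also above f/f 1 for *Lcn2* (832 against 809) and *Cd177* (175 against 167). The library f/f 2 was the lowest in CPM for 7 of the 10 genes. In Pf4-iCre libraries, Pf4-iCre 1 was the lowest in CPM for 9 of the 10 genes, and Pf4-iCre 3 the highest for 6. The widest spread around the mean of the genotype was that of *S100a8*, with a pooled SD of 0.49 on the log2 scale, and the narrowest that of *Chil3* at 0.15.

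With the mean of each genotype taken out, Pearson correlations between the 10 genes were computed across the 6 libraries (4 residual degrees of freedom). They are descriptions of points that share library size and cell mixture. Of the 45 pairs, 37 were positive, 10 were over 0.8, and the median was 0.60. *Camp* went with *S100a8* (r = 0.94) and *Ngp* (r = 0.86), all highest in f/f 1. *Mmp8* went with *Cd177* (r = 0.94) and *Mmp9* (r = 0.88), and *Ltf* with *Mmp8* (r = 0.92) and *Asprv1* (r = 0.91). *Camp* and *Mmp9* were apart (r = -0.23), as were *Camp* and *Chil3* (r = -0.66), the lowest of all pairs.

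**Figure D5:**
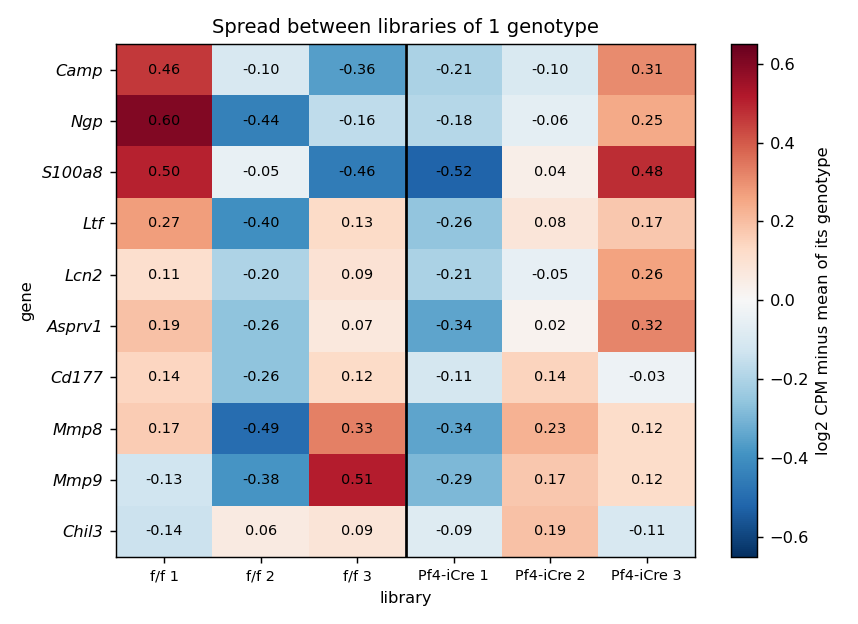
Log2 CPM of each gene in each library minus the mean of its genotype (red above, blue below, values printed). *Camp*, *Ngp* and *S100a8* were highest in f/f 1, at 0.46 to 0.60 above the mean, and *Mmp9* in f/f 3, at 0.51.

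Other granulocyte genes were not uniform in which f/f library they were highest in CPM. Of the 32 further granule and late neutrophil genes, 19 were highest in f/f 1, 4 in f/f 2 and 9 in f/f 3, and of 12 primary granule genes 5, 4 and 3. *Cxcr2*, the chemokine receptor of mature neutrophils, lay at 33.2, 39.4 and 82.0 CPM in f/f 1, 2 and 3, highest in f/f 3 like *Mmp9*. *Mmp25*, a membrane-bound metalloproteinase of neutrophils, lay at 103, 57.1 and 96.0 CPM and *Trem1*, an activating receptor of neutrophils and monocytes, at 242, 186 and 144, both highest in f/f 1 like *Ngp*. *Mpo*, the myeloperoxidase of primary granules, lay at 3831, 3178 and 4001 CPM, highest in f/f 3. These 4 genes were picked after their values were seen. In the same library f/f 1, a list of 6 eosinophil, basophil and mast cell markers took 0.698% of all counts, against 0.255% to 0.426% in the other 5 libraries, and the part of such cells in the values of f/f 1 was not tested.

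The 5 genes outside the group whose deviations followed the mean of the 10 most closely were *Slco4c1*, *Cdc37l1*, *Lnpep*, *Pign* and *Ly75*, with r of 0.9965 to 0.9995 over the 6 libraries. As many as 402 of 12246 other genes (3.28%) had an r over 0.9 and 391 one under -0.9, so such an r was common across 6 libraries.

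The partner of *S100a8* in calprotectin, *S100a9*, lay at 1927, 1454 and 1269 CPM in f/f 1, 2 and 3 and at 1027, 986 and 1512 in Pf4-iCre 1, 2 and 3. The genotypes overlapped (log2 fold change -0.40, standard error 0.20, adjusted p = 0.85 in edgeR). Like *S100a8*, it was highest in f/f 1 and Pf4-iCre 3 within the genotypes. Of the 13 partners, receptors and inhibitors of the 10 gene products that were listed, 10 were tested and none was a DEG, with a median log2 fold change of -0.17. *Lrp1*, a receptor that takes up lactoferrin among many ligands, was at 376, 545 and 516 CPM in f/f libraries 1 to 3 and at 811, 626 and 537 in Pf4-iCre libraries 1 to 3 (log2 fold change 0.46, standard error 0.19, adjusted p = 0.73 in edgeR). The inhibitor *Timp1*, the *Lcn2* receptor *Lrp2* and the lactoferrin receptor *Itln1* were not tested.

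A further 32 genes of specific and gelatinase granules and late neutrophils were all tested, and 24 were negative, with a median log2 fold change of -0.27. Of these, 2 were DEGs, both lower, which is 6.25% of the list beside 0.938% of all tested genes in that direction, and 6677 of all 12256 genes tested were negative. *Lrg1*, a glycoprotein stored in neutrophil granules, was at 34.0 ± 10.7 CPM in f/f and 20.5 ± 3.57 in Pf4-iCre libraries (SD, n = 3 each). Its log2 difference was -0.73 (standard error 0.21, adjusted p = 0.45 in edgeR). *Chil1*, a chitinase-like protein of specific granules, was at 53.1 ± 8.83 and 35.3 ± 8.55 CPM (SD, n = 3 each), with -0.59 on the log2 scale (standard error 0.19, adjusted p = 0.50 in edgeR). Without f/f 3, *Lrg1* was at -0.44 and no longer a DEG. *Chil1* was no longer one with DESeq2 (-0.582) or its size factors (-0.584), both just short of a fold of 1.5. The same held without f/f 1 (-0.51), f/f 3 (-0.52) or Pf4-iCre 1 (-0.40). Neither *Lrg1* nor *Chil1* was a DEG with the GC and length correction. The list as a whole took 1.39% ± 0.0656% of counts in f/f and 1.47% ± 0.0493% in Pf4-iCre libraries (SD, n = 3 each), and the order of these means rested on 1 gene. *Lyz2*, the lysozyme gene of neutrophils, monocytes and macrophages, was the most abundant of the 32 in CPM and had a log2 fold change of 0.40. Without it, a sum added after the data were seen, the other 31 genes took 0.936% ± 0.0834% in f/f and 0.879% ± 0.0296% in Pf4-iCre libraries (SD, n = 3 each), and the genotypes overlapped.

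For the earlier stage, 12 of 13 primary granule genes were tested, 9 were negative, and the median log2 fold change was -0.33. Their summed share was 0.687% to 0.747% of counts in f/f and 0.530% to 0.656% in Pf4-iCre libraries, which did not overlap. For 6 of the 12 genes every Pf4-iCre library was below every f/f library, as for 5.18% of all tested genes. The only DEG was *Prss57*, a serine protease of these granules, at 46.8 ± 4.97 and 30.8 ± 7.55 CPM in f/f and Pf4-iCre libraries (SD, n = 3 each), with -0.60 on the log2 scale (standard error 0.18, adjusted p = 0.45 in edgeR). It was no longer a DEG with the GC and length correction (-0.54), or without f/f 1 (-0.54), f/f 3 (-0.57), Pf4-iCre 1 (-0.55) or Pf4-iCre 2 (-0.46). None of the 13 granulopoietic transcription factors listed was a DEG. Of these factors, 6 were negative and 7 positive, with a median of 0.00. Every Pf4-iCre library was below every f/f library for 1 factor and above for 1 other. Of all tested genes, 5.18% and 5.42% did so. *Cebpe*, the factor needed for secondary granule genes, lay at 62.8, 57.6 and 55.1 CPM in f/f 1, 2 and 3 and at 38.6, 32.9 and 48.8 in Pf4-iCre 1, 2 and 3, and these values did not overlap. The difference, -0.55 on the log2 scale (standard error 0.16, adjusted p = 0.44 in edgeR), was short of a fold of 1.5. It passed without f/f 3 (-0.59) or Pf4-iCre 3 (-0.71). The difference was smaller with the GC and length correction (-0.42), without Pf4-iCre 2 (-0.42) and without f/f 1 (-0.48). The most abundant of the listed factors per length were *Cebpb*, at -0.19 on the log2 scale (standard error 0.24, adjusted p = 0.97 in edgeR), and *Spi1*, which encodes PU.1, with -0.13 (standard error 0.13, adjusted p = 0.95 in edgeR).

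Markers of other blood cells differed between the genotypes in some lists and overlapped in others. Over all tested genes, 0.938% were DEGs in the lower and 1.36% in the higher direction, and no gene of these marker lists had an adjusted p under 0.05 in edgeR. Of the 8 neutrophil markers, all of them also among the 32 genes above, 7 were negative and none was a DEG, and their summed share was 0.127% to 0.176% in f/f and 0.124% to 0.134% in Pf4-iCre libraries. All 10 erythroid markers were negative, and 6 of them were DEGs. Their share was 0.04223% to 0.06438% in f/f and 0.03053% to 0.04216% in Pf4-iCre libraries, which narrowly did not overlap. All 6 monocyte markers were positive, with 1 DEG, and their share was 0.315% to 0.382% in f/f and 0.438% to 0.458% in Pf4-iCre libraries, which did not overlap. Of 9 tested macrophage markers, 8 were positive, with 3 DEGs and a share of 0.0203% to 0.0369% against 0.0270% to 0.0293%. The B-cell markers (5 of 6 negative, 1 DEG, 0.00938% to 0.0178% of counts over all libraries), the T and NK cell markers (2 of 5 tested, at most 0.000578%) and the eosinophil, basophil and mast cell markers (5 of 6 negative) overlapped between the genotypes in their share, as did the neutrophil and macrophage markers. None of the neutrophil, monocyte, erythroid or MK markers was at 0 in any library. The part of these cell types in the values of the 10 genes was not tested.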

How the data were processed

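RNA of sorted MKs was measured in 6 libraries, and the titles gave each library's genotype and number. Nothing in the labels says that replicates are separate mice, so p-values measure the spread between these samples. The authors filtered the reads and mapped them with HISAT, and the submitters' processing notes also name Bowtie2, GRCm39 and mm39. The counting tool is not given in the sources used here. The deposited estimated counts carry no normalization. The authors' FPKM values correct these for length and depth. Of the per-sample columns, 16 were not used, among them 4 of a library that matches none of these samples, nor were 8 columns of group means.

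Estimated counts were rounded, filtered by expression (12256 of 16579 genes kept), scaled by TMM and compared between genotypes in R 4.3.3 with edgeR 4.0.16 (quasi-likelihood, genotype only, Benjamini-Hochberg adjustment over all tested genes). CPM are TMM-scaled. The study used DESeq2, which is an alternative here. DEGs had a fold change of at least 1.5 and an unadjusted *P* under 0.05. Log2 CPM for correlations used a prior count of 2. Replicate libraries correlated at 0.980 to 0.992 (log2 CPM), and their counts differed beyond counting error (chi-square of 14.6 to 47.6 per degree of freedom). The precision of each value is limited by 3 libraries per genotype, and counting error is small beside it. Standard errors are the size of the fold change over the root of F.

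Members and lists were chosen with earlier results of these data known. Genes named were the 10 members, *Becn1*, *S100a9*, *Cebpe* and the 5 genes most like the members. From the lists of partners, other granule genes, primary granule genes and transcription factors, the DEGs were named, or the 2 genes of highest mean FPKM where a list had none. Apart from *Pf4*, DEGs of the cell marker lists were counted and not named. Others were named where the text says so or where a count or a limit turned on them. Alternatives were DESeq2 1.42.0, its size factors in edgeR, upper-quartile scaling, other count filters, the replicate block, limma 3.58.1 on log2 FPKM with pseudocounts of 1 and 0.1, and leaving out each library, plus a correction for GC content and length (splines of 5 degrees of freedom) chosen after seeing the data. The fit was checked on simulated data. Promoters are RefSeq's on GRCm38.p6, and transcripts are those of GENCODE M21, which are of another build than the authors' notes name.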

Additional observations from a re-analysis of the deposited data

How the results depend on the processing

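For the 10 genes, 1 to 5 were DEGs when 1 library was left out, beside 2 with all libraries. Over all genes, the same fits gave 225 to 410 DEGs (12370 to 12409 genes tested) and 282 (12256 tested). The median log2 fold change kept its direction under all 16 alternatives. It ranged from -0.58 to -0.11 with 1 library left out at a time, the value nearest 0 being that without f/f 1, and from -0.43 to -0.38 under the others. Their share of counts in Pf4-iCre libraries was 76.4% to 89.9% of the f/f share when each library was left out. Neighboring pairs apart in FPKM numbered 5 in each genotype, and 6 to 7 in f/f and 5 to 8 in Pf4-iCre libraries with 1 library left out. Genes with an r over 0.9 to the 10 genes numbered 125 with genotype means left in and 709 to 1108 without 1 library. The total of 282 DEGs became 121 with limma on log2(FPKM + 1), 137 with a minimum mean FPKM of 1 added, 432 with a pseudocount of 0.1 and 5 at an adjusted p under 0.05, and was 225 to 410 without 1 library. Of the 282 DEGs 115 were lower, and in these limma fits, in which test, filter and scale all differ, 33 of 121, 41 of 137 and 216 of 432. Among the 32 other granule genes, 1 was a DEG with DESeq2 or its size factors, 0 with the GC and length correction, 0 at an adjusted p under 0.05 and 0 to 5 without 1 library. Among primary granule genes, 2 were DEGs with limma on any FPKM setting, 0 at an adjusted p under 0.05 and 0 to 5 without 1 library. Partners and transcription factors each gave 0 to 2 DEGs without 1 library. *Becn1* stayed between -0.20 and -0.08 without 1 library. The causes were not tested. The same-numbered libraries of the genotypes did not deviate together (correlations of 0.07, -0.28 and 0.20), so the replicate number was not taken as a pairing. With the replicate block there were 296 DEGs, 2 of them primary granule genes in place of 1, and the median of the 10 genes was -0.39 (1 of them a DEG).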
